A study of Mus musculus with 72 samples.

Results

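The genes described here are 9 regulators and receptors of naive and memory T cells, namely Tcf7, Lef1, Klf2, Foxo1, Bach2, S1pr1, Il7r, Id3 and Satb1. They were taken by name and not by a threshold on their values, though with earlier results of these data known. All 9 were found once among the 55487 annotated genes of the count table. The study cultured splenocytes of OT-I mice, whose CD8+ T cells carry a transgenic receptor for the ovalbumin peptide SIINFEKL, after lysis of red cells. Cells were activated with 10 ng/mL of the peptide and 100 IU/mL of recombinant human IL-2, and all 72 samples are labelled OT-I CD8+ T cell. RNA was sequenced from unstimulated cells and from activated cells at 4 h, 24 h and 48 h. At each time cells were given vehicle, 1 µM CB-839 (an inhibitor of the enzyme glutaminase), 1 µM DON (6-diazo-5-oxo-L-norleucine, a glutamine analogue that blocks many enzymes that use glutamine) or medium without glutamine. This gave 13 RNA groups of 4 libraries, lettered A to D. CUT&RUN, which maps a chromatin mark by cutting the DNA around it, was done at 48 h on the 4 conditions for H3K27ac and H3K27me3 (2 libraries each) and for IgG (1 each). CB-839 was dissolved in DMSO and DON in PBS, but the labels give a single vehicle group. The effect of a drug therefore cannot be fully told apart from that of its solvent, whether against vehicle or between the drugs. The cells without glutamine were grown without it from plating, and the drug-treated and vehicle cells had it. Neither the number of mice nor a sort of the CD8+ cells is given in the labels, so the spread between libraries may be partly technical.

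Naive T cells circulate between blood and lymph nodes and are kept alive by IL-7. The transcription factor FOXO1, when not held in the cytoplasm by AKT, activates Klf2 and Il7r, and KLF2 in turn activates S1pr1, the receptor for sphingosine-1-phosphate through which lymphocytes leave lymphoid tissue. Signals from the T cell receptor and IL-2 turn this axis down. TCF1 (encoded by Tcf7) and LEF1 are related factors that maintain naive and stem-like memory cells, BACH2 restrains effector differentiation, ID3 restrains E proteins in cells with memory potential, and SATB1 organizes chromatin loops in T cells.

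Promoter sequence is shown for 3 genes whose starts differed in the chromatin data described further on. The Lef1 window lay between an H3K27me3 peak and an H3K27ac peak of vehicle cells, the Klf2 window lay under no listed peak although Klf2 had the largest change with DON of the 9 genes, and the Satb1 window lay under H3K27ac peaks in 3 of the 4 conditions. The sequences are from RefSeq (GRCm38.p6, the assembly also named mm10), written 5′ to 3′ on the strand of the gene. Only bases upstream of the transcript start in both RefSeq and GENCODE are printed. Capitals mark CCACCC, the core of the sites bound by KLF factors, in Lef1, and GGGCGG, the GC box bound by SP and KLF factors, once in Lef1 and at 2 places in Klf2, while in the printed Satb1 window no searched motif was found. RefSeq held 4 starts for Lef1 and 5 for Satb1, and 1 window of each is printed. The window of a Satb1 start 643 bases inside the gene held 3 matches of GGGCGG, and each of the other Satb1 windows not printed held a searched motif. The Lef1 window is chr3:131110047-131110296 on the plus strand, with 66.4% G and C. The Klf2 window is chr8:72318812-72319032 on the plus strand, with 71.5% G and C. The Satb1 window is chr17:51833291-51833540 on the minus strand, with 58% G and C.
Lef1: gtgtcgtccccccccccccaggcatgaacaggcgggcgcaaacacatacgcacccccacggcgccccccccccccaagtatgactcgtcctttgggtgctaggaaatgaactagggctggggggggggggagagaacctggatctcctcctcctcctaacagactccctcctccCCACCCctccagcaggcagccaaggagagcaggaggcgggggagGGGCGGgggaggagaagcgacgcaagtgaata
Klf2: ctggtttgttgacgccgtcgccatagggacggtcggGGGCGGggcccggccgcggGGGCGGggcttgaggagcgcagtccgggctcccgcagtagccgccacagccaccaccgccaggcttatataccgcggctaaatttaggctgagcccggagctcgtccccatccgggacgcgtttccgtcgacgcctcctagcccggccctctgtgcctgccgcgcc
Satb1: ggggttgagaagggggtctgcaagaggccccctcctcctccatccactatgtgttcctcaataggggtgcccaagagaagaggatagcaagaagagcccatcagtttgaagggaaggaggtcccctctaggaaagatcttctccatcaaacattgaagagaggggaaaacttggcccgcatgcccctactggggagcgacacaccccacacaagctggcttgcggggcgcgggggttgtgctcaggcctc
Both strands were searched in the 250 bases upstream of 32851 RefSeq starts. CCACCC was found in 28.1% of these promoters, and GGGCGG in 32.7% of them. The other motifs searched were TGTTTAC (3.17% of promoters), CTTTGAA (4.46%), CTTTGAT (3.21%), CAGCTG (13%), CAGGTG (17.2%), CCGGAAG (6.91%) and TGACTCA, whose reverse complement is TGAGTCA (4.46%). A match is a description of letters and not evidence that a factor was bound.

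The 52 RNA libraries held between 25.6 M and 51 M counted reads. Levels are given as CPM, the reads of a gene per 1 M counted reads of its library, scaled by the TMM method over all 52 libraries. The 12 markers of CD8+ T cells were expressed in every group, with Cd8a at 1040 ± 61.9 CPM in unstimulated cells (SD, n = 4), while Cd4 had a group mean of at most 1.42 CPM. Markers of B cells were present at 4 h, and their summed levels stand beside the 4 h results. At 48 h the B cell markers Ms4a1, Fcrla and Cr2 had no read in any vehicle library. In several of the 9 genes 3 libraries stood apart from their groups, namely vehicle C at 48 h, DON D at 24 h and no-glutamine D at 24 h, and values named below that 1 of them moved by over 1.5 times in a comparison of a treatment with vehicle are given with and without it. Fewer cells of a type and less RNA per cell cannot be told apart in these bulk samples.

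In unstimulated cells Klf2, S1pr1 and Il7r stood high per length of exon, as did Tcf7, while Foxo1 stood lower. Klf2 had the highest level per length, at 702 ± 59.3 CPM per kb of exon (SD, n = 4), followed by Tcf7 at 411 ± 38.6, S1pr1 at 168 ± 16.1 and Il7r at 55.9 ± 3.15. Id3 (25 ± 3.9), Satb1 (24.2 ± 1.97), Foxo1 (23.9 ± 1.75) and Lef1 (20.4 ± 1.64) came next and did not differ beyond their spread from the nearest of them in that order. Bach2 was lowest, at 5.78 ± 0.222 CPM per kb.

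Activation with vehicle lowered 6 of the 9 genes by large factors within 4 h and raised 2. Klf2 was at 1320, 1230, 1440 and 1190 CPM in the unstimulated libraries A to D and averaged 20.3 ± 4.97 CPM at 4 h, which was 1.56% of its unstimulated level. S1pr1 fell from 511 ± 49.1 to 6.11 ± 1.76 CPM (1.2%), Tcf7 from 1240 ± 117 to 34.2 ± 4.53 CPM (2.76%), Il7r from 261 ± 14.7 to 11 ± 3.27 CPM (4.21%), Lef1 from 180 ± 14.4 to 9.54 ± 1.25 CPM (5.31%), and Foxo1 from 207 ± 15.2 to 24.1 ± 1.02 CPM (11.7%). No vehicle library at 4 h overlapped an unstimulated one for these 6 genes, though the share of all genes without overlap was not counted. The adjusted p-values of these 6 genes ranged from 7.78e-19 for Tcf7 to 1.76e-12 for Il7r. These p-values, like all those below, were obtained with the quasi-likelihood F-test of edgeR and adjusted by the method of Benjamini and Hochberg over every gene that entered the fit. Bach2 rose instead from 57.5 ± 2.21 to 104 ± 4.26 CPM (log2 fold change 0.81 ± 0.09 SE, adjusted p = 5.8e-08), and Id3 from 44.8 ± 6.98 to 84.7 ± 2.19 CPM (0.88 ± 0.15, adjusted p = 2.44e-05). Satb1 changed least, from 460 ± 37.5 to 391 ± 28 CPM (-0.27 ± 0.09, adjusted p = 0.0104), a call that was lost without vehicle C at 4 h (-0.17, adjusted p = 0.128) or without unstimulated C (-0.22, adjusted p = 0.0517). All 9 genes passed the test, 2 higher and 7 lower, where 74.9% of all genes tested did (33.9% higher and 41% lower). The B cell markers summed to between 1220 and 1490 CPM in unstimulated libraries and to between 1680 and 2260 CPM at 4 h, and their part in these changes was not tested.

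After 4 h the genes took different courses in vehicle cells, as the plot of levels relative to unstimulated cells shows. Tcf7, Lef1, Foxo1 and Il7r recovered in part by 24 h: Tcf7 reached 223, 232, 213 and 229 CPM in libraries A to D, 6.2-fold above 4 h (log2 2.63 ± 0.09, adjusted p = 3.24e-15), and Lef1 reached 41.9 ± 1.69 CPM (2.05 ± 0.11, adjusted p = 2.6e-12). Il7r rose again between 24 h and 48 h, from 24.7 ± 6.69 to 55.1 ± 8.1 CPM (1.14 ± 0.19, adjusted p = 0.00016), and so did Foxo1, from 55.3 ± 0.874 to 78.4 ± 12.5 CPM (0.49 ± 0.09, adjusted p = 0.000383). Klf2 and S1pr1 did not recover. Klf2 fell further, to 4.64 ± 1.18 CPM at 24 h (-2.2 ± 0.16, adjusted p = 4.89e-10), and was at 5.13 ± 0.706 CPM at 48 h, 0.396% of the unstimulated level. S1pr1 was at 6.65 ± 0.853 CPM at 24 h and 7.04 ± 0.468 CPM at 48 h, neither of which passed the test against the time before. Bach2 and Satb1 fell late, Bach2 from 91.8 ± 1.35 to 32.8 ± 4.63 CPM between 24 h and 48 h (-1.5 ± 0.09, adjusted p = 1.94e-10) and Satb1 from 503 ± 54.6 to 248 ± 24.6 CPM (-1.04 ± 0.09, adjusted p = 4.17e-08). Id3 fell from 4 h to 24 h (-0.35 ± 0.14, adjusted p = 0.0383) and had a log2 fold change of 0.04 ± 0.14 from 24 h to 48 h (adjusted p = 0.871). The call of its fall was lost in 8 of 24 other settings. Among these were fits without vehicle B, C or D at 24 h, vehicle A, B or D at 4 h, or unstimulated A. Without vehicle C at 24 h the value was -0.29 (adjusted p = 0.123). Between 4 h and 24 h 8 of the 9 genes passed the test, against 74.1% of all genes, and between 24 h and 48 h 4 did, against 32.5%. Without vehicle C at 48 h Lef1 also passed in the second interval (0.28, adjusted p = 0.00944). Most markers of B, NK, myeloid and erythroid cells fell from 4 h to 24 h. Of those tested, 14 of 15 B cell markers were lower (median log2 fold change -3.73) and 5 of 5 of NK cells (-2.52). So were 10 of 11 of myeloid cells (-3.23) and 8 of 8 of erythroid cells (-3.69). In sum, though, the myeloid list was at 104 ± 19.4 CPM at 4 h and 95.5 ± 16.1 CPM at 24 h in vehicle cells. The summed list of CD4+ T cell markers rose from 42.3 ± 2.37 to 482 ± 18.5 CPM. That of dendritic cells also rose, to 53.9 ± 13.7 CPM at 24 h. The part of these lists in the courses of the 9 genes was not tested.

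**Figure D1:**
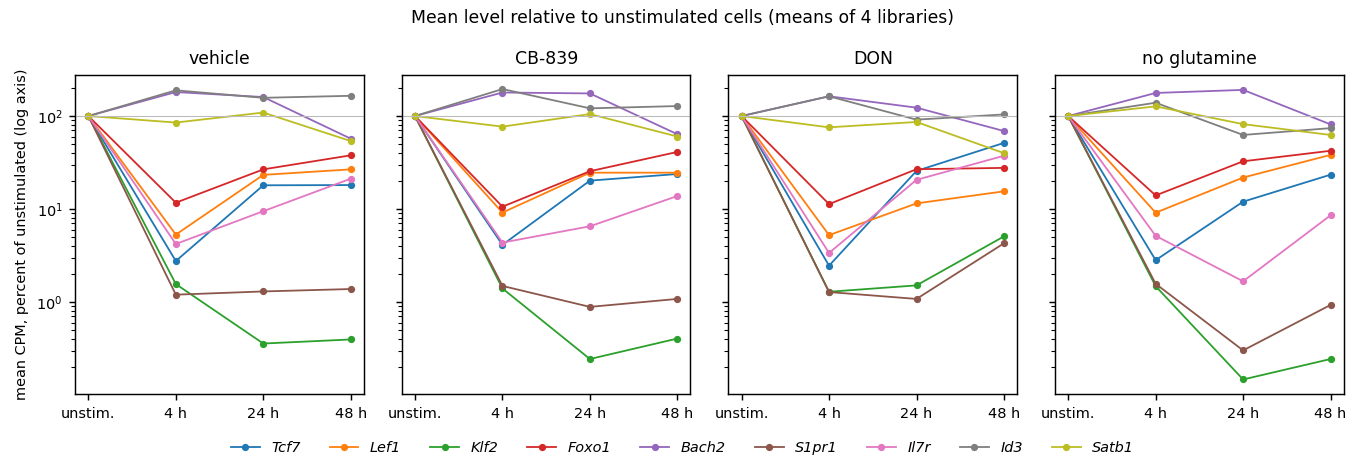
Mean CPM of each gene as a percentage of its unstimulated mean (vertical log axis) against time, in 1 panel per condition; each point is the mean of 4 libraries. Klf2 and S1pr1 stay lowest in every panel, at 0.396% and 1.38% in vehicle cells at 48 h, and rise to 5.08% and 4.28% with DON.

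At 48 h in vehicle cells 8 of the 9 genes were below the unstimulated level and 1, Id3, was above it, and all 9 passed the test against 83.4% of all genes (38.3% higher and 45.1% lower). Relative to the unstimulated mean, Tcf7 stood at 18.1%, Il7r at 21.2%, Lef1 at 26.7%, Foxo1 at 37.8%, Satb1 at 53.8%, Bach2 at 57.1% and Id3 at 165%. The Id3 values at 48 h were 64.9, 55, 108 and 67.1 CPM, with library C far above the other 3, and the log2 fold change of 0.57 ± 0.15 (adjusted p = 0.00143) was 0.37 without it (adjusted p = 0.00131). Against unstimulated cells the B cell markers had a median of -3.65 at 48 h (12 of 15 lower) and the NK cell markers of -4.59 (5 of 5 lower). The list of CD4+ T cell markers rose in sum from 46.1 ± 3.6 to 605 ± 33.4 CPM, although Cd4 itself was low in every group, as given above. The dendritic cell list rose from 5.67 ± 0.827 to 212 ± 68.7 CPM. At 48 h 6 of the 7 genes of the dendritic list averaged below 1 CPM in vehicle cells, and the sum came mostly from Batf3, which also stands in the list of effector factors. The part of these lists in the values of the 9 genes was not tested. At 24 h 8 of 9 genes differed from unstimulated cells, against 84.2% of all genes, and Satb1 had a log2 fold change of 0 (± 0.09 SE, adjusted p = 0.964), which became -0.29 (adjusted p = 0.00717) with scaling by library totals alone. That scaling moved the median of all genes by -0.24 to -0.3 on the log2 scale in the comparisons with unstimulated cells. With it Id3 no longer passed the test at 24 h (0.23, adjusted p = 0.117) or 48 h (0.29, adjusted p = 0.0544).

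At 4 h the question was whether glutamine supply already altered these genes. CB-839 raised the factors Tcf7 and Lef1, the medium without glutamine raised Lef1, Satb1 and Foxo1 and lowered Id3, and DON changed none by the test. The treatments were each compared with the same 4 vehicle libraries. Lef1 was at 11, 8.12, 9.02 and 10 CPM with vehicle, at 16.7, 15.6, 17.6 and 15.9 CPM with CB-839 and at 18.7, 14.5, 15 and 17.5 CPM without glutamine. Every library of both treatments lay above every vehicle library (CB-839: log2 0.77 ± 0.1, adjusted p = 8.26e-05; no glutamine: 0.81 ± 0.1, adjusted p = 4.81e-06), while DON averaged 9.41 CPM. Tcf7 was at 32.6, 28.5, 37.4 and 38.3 CPM with vehicle and at 49.2, 47.7, 53.8 and 53.9 CPM with CB-839, again without overlap (0.56 ± 0.13, adjusted p = 0.0121).

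Without glutamine Satb1 was at 616, 538, 542 and 636 CPM at 4 h, above the vehicle mean of 391 ± 28 CPM and above its unstimulated level (0.6 ± 0.07 against vehicle, adjusted p = 1.19e-06). Id3 was lower, at 57.8, 56.7, 65 and 70.4 CPM against 84.7 ± 2.19 (-0.41 ± 0.08, adjusted p = 0.000336). Foxo1 was at 23.3, 29.4, 37.5 and 25.5 CPM against 24.1 ± 1.02, and its groups overlapped (0.28 ± 0.1, adjusted p = 0.0387). That call was lost when any 1 vehicle library was left out, and without no-glutamine B (0.26, adjusted p = 0.0915), without no-glutamine C (0.16, adjusted p = 0.152) or without CB-839 C (0.28, adjusted p = 0.0529). The receptors S1pr1 and Il7r and the factor Klf2 passed the test with no treatment at 4 h. Between treatments, DON differed from CB-839 at 4 h in 2 of 9 genes (16% of all genes), Tcf7 (-0.69 ± 0.14, adjusted p = 0.0025) and Lef1 (-0.75 ± 0.1, adjusted p = 7.3e-05). The medium without glutamine differed from CB-839 in 4 (31.3% of all genes), namely Tcf7, Foxo1, Id3 and Satb1, and from DON in 4 (36.1%), namely Lef1, Foxo1, Id3 and Satb1. The last count was 2 without DON B, no-glutamine B or no-glutamine C, where Foxo1 and Id3 were lost.

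With CB-839 2 of 9 genes passed the test at 4 h, against 12.5% of all genes, and without glutamine 4 of 9, against 37.6%. With DON 0 of 9 and 0% of all genes passed; at an unadjusted p under 0.05 there were 1862 of 18274 genes, 1 of them a member (Id3, -0.18 ± 0.08), and DESeq2 called 38 genes and no member. Libraries of the same letter deviated together between CB-839 and vehicle at 4 h, and with letter as a block in the fit of 16 libraries 3 of the 9 genes passed, adding Satb1 (-0.16, adjusted p = 0.0254), where 15.9% of all genes did. With that block in the fit of the 8 libraries compared 6 passed, where 30.2% of all genes did, adding Klf2 (-0.17, adjusted p = 0.0371), Foxo1 (-0.17, adjusted p = 0.0187), S1pr1 (0.28, adjusted p = 0.0146) and Satb1 (-0.17, adjusted p = 0.00137). B cell markers summed to 1910 to 2500 CPM with CB-839, 1090 to 2140 with DON and 1320 to 2930 without glutamine at 4 h, and myeloid markers to 86.3 to 131 CPM with vehicle and 144 to 570 CPM without glutamine. Their part in the 4 h results was not tested.

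At 24 h DON and the lack of glutamine moved Klf2, Il7r and Tcf7 in opposite directions. Klf2 was at 6.32, 4.55, 3.63 and 4.08 CPM with vehicle, at 22.9, 23.1, 21 and 11.5 CPM with DON and at 2.06, 2.02, 1.29 and 2.23 CPM without glutamine. All DON libraries lay above and all no-glutamine libraries below the vehicle ones (DON: 4.31-fold, log2 2.11 ± 0.22, adjusted p = 1.85e-07; no glutamine: 0.418-fold, -1.26 ± 0.26, adjusted p = 0.00034). Without DON D, the lowest of its group, the DON value was 2.27. The 4 no-glutamine libraries together held 315 reads of Klf2, so its level there rests on few counts.

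Il7r, the receptor chain for IL-7, was at 23.9, 22.9, 33.9 and 18 CPM with vehicle and 55.2, 52.8, 64.2 and 42.7 CPM with DON, which was 2.22-fold higher (log2 1.15 ± 0.21, adjusted p = 0.000216). Without glutamine it was at 4.29, 4.85, 6.1 and 2.18 CPM, 0.184-fold (-2.44 ± 0.25, adjusted p = 2.42e-07; -2.25 without no-glutamine D). Neither treatment overlapped vehicle. Tcf7 was at 330, 334, 339 and 274 CPM with DON (0.54 ± 0.05, adjusted p = 8.92e-08) and at 146, 150, 144 and 156 CPM without glutamine (-0.54 ± 0.05, adjusted p = 5.37e-08), on either side of the vehicle range of 213 to 232 CPM.

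S1pr1 fell without glutamine, from 6.89, 7.35, 6.96 and 5.41 CPM with vehicle to 1.42, 1.68, 1.58 and 1.5 CPM (0.241-fold, -2.06 ± 0.15, adjusted p = 5.17e-10), while with DON it averaged 5.53 ± 0.948 CPM and did not pass the test (-0.23 ± 0.13, adjusted p = 0.144, or -0.15 without DON D, adjusted p = 0.347). Lef1 showed the converse: with DON it was at 19.2, 18.8, 20.3 and 24.7 CPM against 42.4, 43.5, 39.5 and 42 CPM with vehicle (0.503-fold, -0.99 ± 0.07, adjusted p = 1.21e-09), and without glutamine it had a log2 fold change of -0.05 ± 0.07 (adjusted p = 0.535). Id3 fell under both, to 41 ± 5.69 CPM with DON (-0.75 ± 0.1, adjusted p = 3.01e-06) and 28 ± 3.32 CPM without glutamine (-1.29 ± 0.1, adjusted p = 1.83e-09) from 70.5 ± 8.89 CPM. Bach2 fell with DON to 70.6 ± 2.46 CPM (-0.35 ± 0.05, adjusted p = 5.32e-06) and rose without glutamine to 110 ± 6.87 CPM (0.3 ± 0.05, adjusted p = 2.63e-05) from 91.8 ± 1.35 CPM. Foxo1 rose without glutamine (0.33 ± 0.05, adjusted p = 1.53e-05). Satb1 without glutamine was at 395, 376, 484 and 250 CPM against 523, 482, 566 and 439 CPM; the groups overlapped, and its call (-0.37 ± 0.14, adjusted p = 0.0313) was lost without no-glutamine D (-0.24, adjusted p = 0.0623), without vehicle A (-0.38, adjusted p = 0.0639) or without vehicle C (-0.33, adjusted p = 0.0829).

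Counted over the 9 genes at 24 h, 3 rose and 3 fell with DON, where 58% of all genes passed the test (28.1% higher and 29.9% lower), and 2 rose and 6 fell without glutamine, where 58.9% did (30% higher and 28.9% lower). Their median log2 fold change was -0.23 with DON and -0.54 without glutamine, beside -0.01 and 0.02 over all genes tested. Same-letter libraries deviated together between DON and vehicle at 24 h, and with letter as a block in the fit of 16 libraries Satb1 (-0.31, adjusted p = 0.00188) and S1pr1 (-0.24, adjusted p = 0.0352) also passed with DON, where 63.3% of all genes did. Scaling by library totals alone moved the median of all genes by 0.19 with DON at 24 h and at 48 h, and by 0.11 at 24 h without glutamine. Under it Foxo1 passed with DON (0.22, adjusted p = 0.00136) and Satb1 no longer did without glutamine (-0.27, adjusted p = 0.113). The sum of the B cell markers was 410 to 426 CPM with vehicle, 443 to 633 with DON and 262 to 313 without glutamine. The dendritic cell list summed to 38.7 to 69.6 CPM with vehicle, 21.2 to 31.4 with DON and 40.6 to 55.6 without glutamine. In each of these groups 5 of its 7 genes averaged below 1 CPM. The part of either list in these results was not tested.

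CB-839 had small effects at 24 h. S1pr1 fell from 6.65 ± 0.853 to 5.05, 5.13, 4.51 and 3.44 CPM (0.686-fold, -0.54 ± 0.14, adjusted p = 0.0246) and Id3 from 70.5 ± 8.89 to 54.2 ± 4.79 CPM (-0.37 ± 0.1, adjusted p = 0.0372), so 2 of 9 genes passed, against 4.95% of all genes. The count was 0 without CB-839 C, CB-839 D, vehicle A or vehicle B and 1 without CB-839 A. Same-letter libraries deviated together here as well, and with letter as a block in the fit of 16 libraries 5 genes passed, against 11.3% of all genes, adding Tcf7 (0.18, adjusted p = 0.0297), Bach2 (0.14, adjusted p = 0.0451) and Il7r (-0.52, adjusted p = 0.000347). With that block in the fit of the 8 libraries compared, 6 genes passed, against 23.9% of all genes, with Klf2 (-0.56, adjusted p = 0.00963) added to these 5. The dendritic cell list summed to 19.2 to 33.4 CPM with CB-839 and the B cell list to 377 to 384 CPM, both below their vehicle ranges. Of the dendritic list 5 of 7 genes averaged below 1 CPM with CB-839. The part of either list in these results was not tested.

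**Figure D2:**
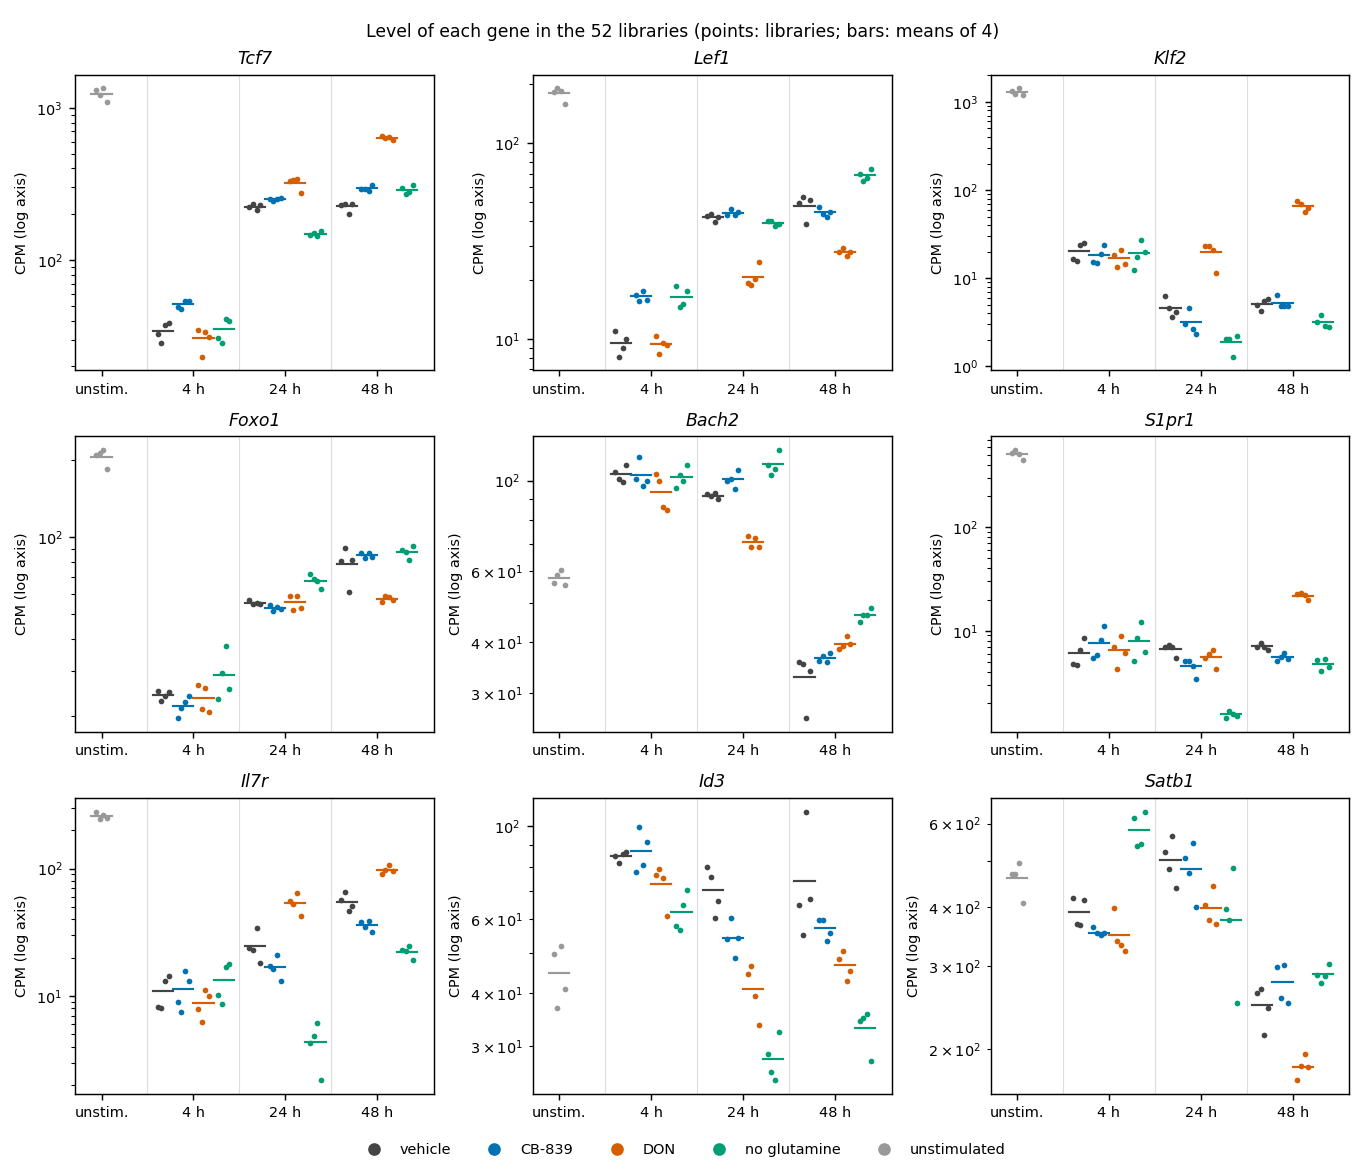
CPM of each gene (vertical log axis) in all 52 libraries by time and condition; points are libraries and bars are means of 4. At 48 h the DON libraries sit above all others for Klf2 (56.6 to 74.2 CPM), S1pr1 (19.7 to 23 CPM), Il7r (89.9 to 106 CPM) and Tcf7 (617 to 657 CPM) and below all others for Lef1, Foxo1 and Satb1.

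At 48 h DON raised 5 of the genes and lowered 4, and in none of the 9 did the DON and vehicle libraries overlap. The share of all genes without such overlap was not counted, so this does not set the 9 genes apart. All 9 passed the test, where 71.2% of all genes did (35.6% higher and 35.6% lower). Klf2 and S1pr1, the genes of lymphocyte exit, rose most. Klf2 was at 74.2, 70.2, 56.6 and 62.3 CPM with DON against 4.99, 4.21, 5.51 and 5.82 CPM with vehicle (13-fold, log2 3.7 ± 0.12, adjusted p = 1.2e-14), and these levels rest on 10298 reads with DON and 730 with vehicle. S1pr1 was at 22.5, 23, 22.2 and 19.7 CPM against 7.02, 7.67, 6.93 and 6.54 CPM (3.13-fold, 1.65 ± 0.09, adjusted p = 8.08e-12). Il7r was at 89.9, 97.3, 106 and 95.9 CPM against 56.8, 65.6, 46.8 and 51.3 CPM (1.78-fold, 0.83 ± 0.1, adjusted p = 4.95e-07). Tcf7 was at 657, 638, 641 and 617 CPM against 231, 233, 202 and 234 CPM (2.87-fold, 1.52 ± 0.06, adjusted p = 7.69e-14). Even so, the DON level was 5.08% of the unstimulated level for Klf2, 4.28% for S1pr1, 37.4% for Il7r and 51.4% for Tcf7.

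The remaining factors fell or rose little. Lef1, the relative of TCF1, fell with DON to 27.8, 29, 26.4 and 27.9 CPM from 49.3, 53, 38.5 and 51.2 CPM (0.584-fold, -0.78 ± 0.08, adjusted p = 1.26e-07). Foxo1 fell to 57.5 ± 1.31 from 78.4 ± 12.5 CPM (-0.43 ± 0.09, adjusted p = 0.000202). Satb1 fell to 183 ± 9.12 from 248 ± 24.6 CPM (-0.42 ± 0.08, adjusted p = 7.29e-05), and Id3 to 46.6 ± 3.35 from 73.8 ± 23.5 CPM (-0.64 ± 0.14, adjusted p = 0.000705). Bach2 rose slightly, from 35.8, 35.4, 26 and 34.1 CPM to 38.5, 39.1, 41.4 and 39.6 CPM (0.28 ± 0.08, adjusted p = 0.00382). Vehicle C was lowest of its group for Tcf7, Lef1, Foxo1, Bach2, Il7r and Satb1 and highest for Id3. With it left out all 9 genes still passed, with Bach2 at 0.18 (adjusted p = 0.00256), Il7r at 0.75 (adjusted p = 3.27e-07) and Id3 at -0.41 (adjusted p = 7.73e-05). Against the share of all genes that passed at 48 h, the number of members that passed says little by itself.

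Medium without glutamine gave another pattern at 48 h, with 4 genes higher and 4 lower, against 54.3% of all genes changed (28% higher and 26.3% lower). The factors Tcf7, Lef1, Bach2 and Satb1 rose while Klf2, S1pr1, Il7r and Id3 fell. Lef1 was at 70, 64, 66.7 and 74.1 CPM, above every vehicle library (1.44-fold, 0.52 ± 0.08, adjusted p = 2.8e-05). Bach2 was at 44.8, 46.7, 46.7 and 48.6 CPM (1.43-fold, 0.51 ± 0.08, adjusted p = 2.59e-05), and Tcf7 at 297, 273, 280 and 310 CPM (1.3-fold, 0.37 ± 0.06, adjusted p = 2.23e-05). Satb1 was at 287, 276, 286 and 303 CPM (0.22 ± 0.08, adjusted p = 0.0174), a call lost without no-glutamine D (0.2, adjusted p = 0.0504). Il7r was at 23.1, 22.5, 24.6 and 19.1 CPM, below every vehicle library (0.406-fold, -1.3 ± 0.1, adjusted p = 6.32e-09). Id3 was at 34.5, 35, 35.7 and 27.6 CPM (0.455-fold, -1.14 ± 0.15, adjusted p = 3.96e-06, or -0.91 without vehicle C), Klf2 at 3.18, 3.82, 2.86 and 2.81 CPM (0.623-fold, -0.68 ± 0.14, adjusted p = 0.000332) and S1pr1 at 5.2, 4.09, 5.28 and 4.46 CPM (0.679-fold, -0.56 ± 0.1, adjusted p = 7.06e-05). Foxo1 averaged 87.6 ± 4.4 CPM and did not pass (0.17 ± 0.09, adjusted p = 0.109). Its value was 0.06 without vehicle C (adjusted p = 0.381), and it passed without vehicle B (0.26, adjusted p = 0.0104) or with scaling by library totals alone (0.26, adjusted p = 0.0288).

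With CB-839 at 48 h Tcf7 rose to 294, 293, 284 and 310 CPM (1.31-fold, 0.39 ± 0.06, adjusted p = 0.000179), and the receptors Il7r and S1pr1 fell. Il7r was at 38.3, 34.9, 38.7 and 31.9 CPM (0.65-fold, -0.62 ± 0.1, adjusted p = 0.000451) and S1pr1 at 5.13, 5.62, 6.08 and 5.3 CPM (0.784-fold, -0.35 ± 0.09, adjusted p = 0.0168). For these 3 genes no library overlapped vehicle, though the share of all genes without overlap was not counted. By the test 3 of 9 genes passed, against 15.2% of all genes. The S1pr1 call was lost without CB-839 A (-0.31, adjusted p = 0.0648) or vehicle B (-0.29, adjusted p = 0.0644), Lef1, at -0.12 ± 0.08 (adjusted p = 0.361), passed without vehicle C (-0.22, adjusted p = 0.00921), and Id3, at -0.36 ± 0.14 (adjusted p = 0.0985), passed without vehicle B (-0.46, adjusted p = 0.031) and was at -0.13 without vehicle C (adjusted p = 0.237). Klf2 had a log2 fold change of 0.04 ± 0.13 with CB-839 (adjusted p = 0.879), or 0.07 without vehicle C (adjusted p = 0.749). At 48 h the B cell list summed to 525 to 582 CPM with vehicle, 535 to 583 with CB-839, 704 to 769 with DON and 412 to 471 without glutamine, mostly from Ighm (552 CPM with vehicle and 693 with DON). Ms4a1 was below 1 CPM in each group. The dendritic cell list summed to 162 to 313 CPM with vehicle, 126 to 171 with CB-839, 18.5 to 24.5 with DON and 150 to 211 without glutamine, mostly from Batf3 (210 CPM with vehicle and 18.4 with DON), while its other 6 genes were below 1 CPM with vehicle. The NK cell list summed to 0.682 to 1.06 CPM with vehicle and 2 to 2.53 CPM with DON. The part of these lists in the 48 h results was not tested.

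**Figure D3:**
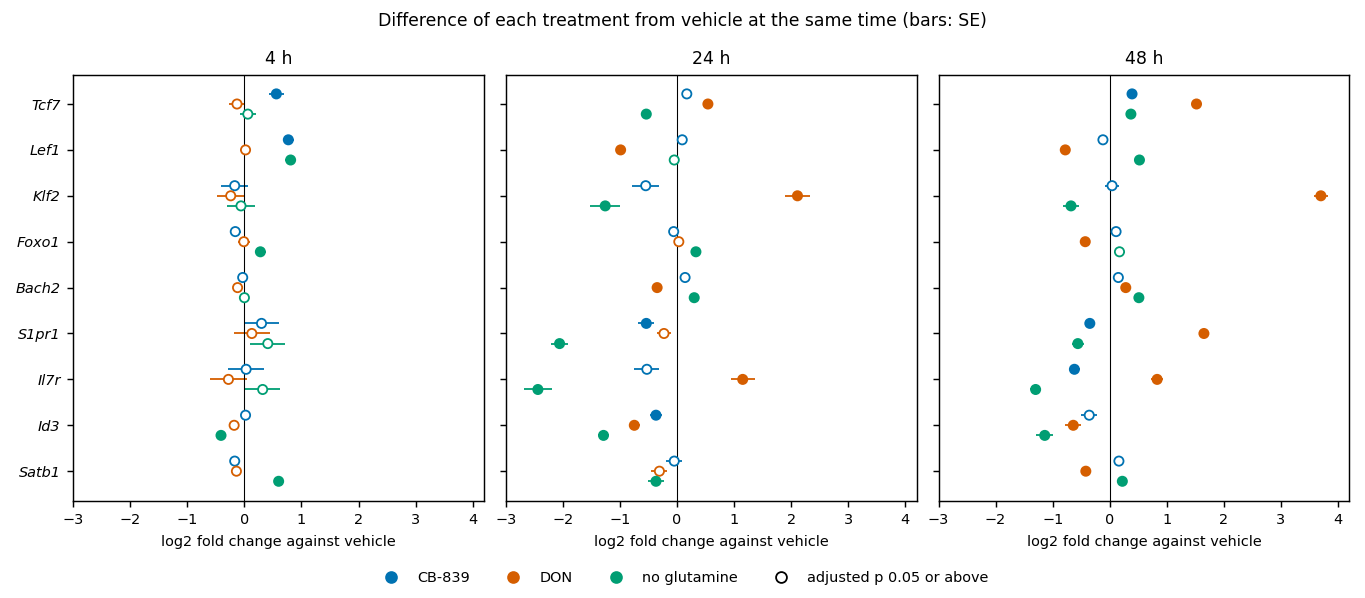
Log2 fold change against vehicle (horizontal axis) for each gene at 4 h, 24 h and 48 h; bars are SE and open circles did not pass the test. At 48 h Klf2 lies at 3.7 with DON and at -0.68 without glutamine, whereas Lef1 lies at -0.78 and 0.52.

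The treatments were also compared with one another. At 48 h all 9 genes differed between the medium without glutamine and DON, against 68.6% of all genes (34.6% higher and 34.1% lower): 5 were lower without glutamine, led by Klf2 (-4.38 ± 0.13, adjusted p = 2.03e-15), S1pr1 (-2.2 ± 0.09, adjusted p = 2.38e-13), Il7r (-2.13 ± 0.1, adjusted p = 2.34e-12) and Tcf7 (-1.15 ± 0.06, adjusted p = 3.52e-12), and 4 were higher, led by Lef1 (1.3 ± 0.08, adjusted p = 1.16e-10). Bach2 was among the 4 at 0.23 (adjusted p = 0.0156), but not with scaling by library totals alone (0.14, adjusted p = 0.174). At 24 h 8 of 9 differed between the same groups, against 58.9%, with Il7r at -3.59 ± 0.25 (adjusted p = 1.82e-09) and Klf2 at -3.37 ± 0.24 (adjusted p = 6.72e-10). Between DON and CB-839 6 of 9 genes differed at 24 h, against 59.7%, with Klf2 at 2.66 ± 0.23 (adjusted p = 1.22e-08) and Il7r at 1.68 ± 0.22 (adjusted p = 5.06e-06). Same-letter libraries of these groups deviated together, and with letter as a block in the fit of 16 libraries S1pr1 (0.3, adjusted p = 0.0109) and Satb1 (-0.25, adjusted p = 0.00805) passed as well, where 64.7% of all genes did. Between the medium without glutamine and CB-839 7 of 9 differed at 24 h, against 58%, with S1pr1 at -1.51 ± 0.15 (adjusted p = 5.9e-08). At 48 h, with DON and CB-839 given at the same concentration but in different solvents, 7 of 9 genes differed between them, against 70.4%: Klf2 was 12.7-fold higher with DON (3.66 ± 0.12, adjusted p = 1.12e-14), S1pr1 3.99-fold (2 ± 0.09, adjusted p = 6.98e-13), Il7r 2.74-fold (1.45 ± 0.1, adjusted p = 3.05e-10) and Tcf7 2.19-fold (1.13 ± 0.06, adjusted p = 3.8e-12), while Lef1, Foxo1 and Satb1 were lower. Bach2 (0.13 ± 0.08, adjusted p = 0.144) and Id3 (-0.27 ± 0.14, adjusted p = 0.0971) did not pass, but did without vehicle C at 48 h, a library that enters the shared estimate of spread (0.13, adjusted p = 0.0146, and -0.28, adjusted p = 0.0017). Between the medium without glutamine and CB-839 5 of 9 differed at 48 h, against 51%, and Tcf7 was at nearly the same level (-0.02 ± 0.06, adjusted p = 0.849).

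Whether an effect changed with time was tested in a fit of all 52 libraries, as the difference between the effects at successive times. The Klf2 effect of DON grew from 4 h to 24 h by 2.36 ± 0.31 on the log2 scale (adjusted p = 1.15e-07) and from 24 h to 48 h by 1.56 ± 0.32 (adjusted p = 0.000205). The S1pr1 effect of DON changed from 24 h to 48 h by 1.84 ± 0.28 (adjusted p = 2.5e-06), while its change from 4 h to 24 h did not pass (-0.35 ± 0.29, adjusted p = 0.439). That of Bach2 with DON changed by 0.6 ± 0.12 (adjusted p = 9.3e-05), from -0.42 at 24 h (adjusted p = 3.78e-05) to 0.18 at 48 h, which did not pass in this fit (adjusted p = 0.0727). Without glutamine the Tcf7 effect turned from negative at 24 h to positive at 48 h (0.93 ± 0.13, adjusted p = 2.3e-07), and the losses of S1pr1 and Il7r at 24 h shrank by 1.51 ± 0.32 (adjusted p = 0.000467) and 1.15 ± 0.33 (adjusted p = 0.0115). For DON 5 of 9 genes passed in each interval, against 25% and 26.9% of all genes, and without glutamine 8 and then 5, against 28.5% and 17.6%. With CB-839 the counts were 1 (Lef1, -0.69 ± 0.13, adjusted p = 0.00293, against 0.622% of all genes) and 0 (against 0.926%; no member was under an unadjusted p of 0.05 by edgeR).

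The genes around these 9 were described with lists of related genes, chosen for their roles with earlier results of these data known. Their counts at 48 h stand beside 71.2% of all genes passing the test with DON, 54.3% without glutamine and 15.2% with CB-839. A count near these shares does not set its list apart from all genes. Of 30 other naive and memory genes, 28 fell and 1 rose from unstimulated to vehicle cells at 48 h (median -2.76, beside -0.16 over all genes). Over all genes tested 45.1% were lower and 38.3% higher in that comparison. Among the 30 were Ccr9, the gut homing receptor, at -9.41 ± 0.18 (adjusted p = 2.51e-18) and Tsc22d3, which encodes GILZ, at -5.88 ± 0.13 (adjusted p = 1.04e-17). With DON at 48 h 19 of the 30 rose against vehicle and 9 fell (median 0.56, beside 0 over all genes), including Nsg2 (2.65 ± 0.09, adjusted p = 2.24e-14), the antiproliferative gene Btg2 (2.12 ± 0.08, adjusted p = 9.03e-14) and Pik3ip1, an inhibitor of PI3K (1.7 ± 0.09, adjusted p = 1.21e-11). Without glutamine 15 rose and 4 fell (median 0.24, beside 0.02), including Btg1 (0.95 ± 0.07, adjusted p = 5.13e-09) and the lymph node homing receptor Ccr7 (0.77 ± 0.06, adjusted p = 7.96e-09). With CB-839 11 rose and 2 fell (median 0.2, beside -0.01), including Nsg2 (0.85 ± 0.09, adjusted p = 1.05e-05).

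A list of effector transcription factors moved in the other direction with DON. With DON at 48 h 19 of 21 fell and 1 rose (median -0.79), with Tbx21, which encodes T-bet, at -2.65 ± 0.1 (adjusted p = 9.53e-14) and Irf4 at -1.71 ± 0.07 (adjusted p = 9.53e-14), while Nr4a2 rose (1.67 ± 0.08, adjusted p = 9.28e-13). Without glutamine 6 rose and 5 fell (median -0.03), and Prdm1, which encodes BLIMP1, fell in both (-3.47 ± 0.26, adjusted p = 2.71e-09 without glutamine; -4.46 ± 0.29, adjusted p = 1.14e-10 with DON). Between the 2 conditions themselves 18 of the 21 were higher without glutamine and 1 was lower (median 0.92), with Irf4 at 2.21 ± 0.07 (adjusted p = 3.81e-15). Over all genes tested 34.6% were higher and 34.1% lower in that comparison. Prdm1 and Batf stand in this list and in the list of BACH and MAF partners.

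Of 15 tested genes of sphingosine-1-phosphate response and lymphocyte trafficking, 9 rose and 3 fell with DON at 48 h (median 0.22), led by Itgae, which encodes the integrin CD103 (5.09 ± 0.17, adjusted p = 1.01e-14), and S1pr4 (1.12 ± 0.09, adjusted p = 1.06e-09). Without glutamine 6 rose and 2 fell (median 0.07), among them Itgae (2.12 ± 0.18, adjusted p = 1.36e-08), Cd69, whose protein removes S1PR1 from the surface (0.82 ± 0.09, adjusted p = 2.29e-07), and Sgpl1, the lyase that degrades sphingosine-1-phosphate (0.74 ± 0.09, adjusted p = 1.6e-06). Of 15 genes of IL-7 and common gamma chain signalling, 9 fell and 3 rose with DON (median -0.4), with the STAT5 target Cish at -1.25 ± 0.05 (adjusted p = 1.75e-13) and Il2ra, the IL-2 receptor alpha chain, at -1.87 ± 0.08 (adjusted p = 2.38e-13). Without glutamine 7 rose and 3 fell (median 0.08), with Stat5a at 0.56 ± 0.04 (adjusted p = 7.66e-09) and Bcl2, a survival gene, at 0.69 ± 0.07 (adjusted p = 2e-07).

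Of 20 tested genes of the FOXO and AKT axis, 6 rose and 9 fell with DON (median -0.18) and 11 rose and 5 fell without glutamine (median 0.18). Trib3, a pseudokinase that binds AKT, fell with DON (-2.95 ± 0.11, adjusted p = 5.37e-14) and rose without glutamine (3.07 ± 0.1, adjusted p = 5.83e-14), and the FOXO targets Ccng2 (1.63 ± 0.1, adjusted p = 4.39e-11, with DON) and Fbxo32 (1.95 ± 0.14, adjusted p = 1.91e-09, without glutamine) rose. Of 16 partners of TCF and LEF factors, 6 rose and 6 fell with DON (median -0.05) and 5 rose and 2 fell without glutamine (median 0.07), where the Wnt target Axin2 rose (1.12 ± 0.11, adjusted p = 1.53e-07) and Ctnnb1, which encodes β-catenin, fell (-0.47 ± 0.04, adjusted p = 4.3e-08). Of 13 partners and relatives of BACH2, 2 rose and 9 fell with DON (median -0.6), with Jun higher (1.43 ± 0.08, adjusted p = 7.58e-12) and Mafk lower (-1.23 ± 0.08, adjusted p = 6.85e-11), and 3 rose and 5 fell without glutamine (median 0.04). Of 7 tested E and ID protein genes, 2 rose and 4 fell with DON (median -0.24), with Id1 at 2.63 ± 0.29 (adjusted p = 1.6e-07), and 1 rose and 2 fell without glutamine (median 0.11).

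The chromatin data are peak lists that the authors made at 48 h, 1 per mark and condition. The lists differed widely in length: H3K27ac had 9681 peaks with vehicle, 117 with CB-839, 33 with DON and 6687 without glutamine, and H3K27me3 had 13556, 12417, 3533 and 8795. A gene without a peak in a short list therefore cannot be read as lacking the mark. In vehicle cells 7 of the 9 genes had an H3K27ac peak within 1000 bases of the start, where 42% of all genes did; the others were Klf2 and Id3. Without glutamine 6 did (28.6% of all genes), with the S1pr1 peak there lying 2141 bases inside the gene. With CB-839 only Satb1 did (0.643% of all genes), and with DON none did (0.21%).

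Some peaks were wider without glutamine than with vehicle, as were those of the whole list, with a mean width of 3023 against 2546 bases. The peak over the Tcf7 start spanned 8008 bases with vehicle (chr11:52276743-52284750) and 20001 bases without glutamine, where it ranked 52 of 6687 by the authors' signal. The Satb1 peak spanned 3302 bases with vehicle (chr17:51831113-51834414) and 32779 without glutamine, where it ranked 4, and the CB-839 peak over the Satb1 start spanned 6664 bases and ranked 30 of 117. The vehicle list held 3 peaks in the Tcf7 gene and 8 in the Satb1 gene, against 1 and 3 without glutamine, so that the wider peaks stand beside fewer of them. The reverse held at S1pr1, where the peak spanned 5695 bases with vehicle and 1674 without glutamine, and at the Bach2 start, with 6819 and 4114 bases. Bach2 held the largest number of H3K27ac peaks in its body, 21 with vehicle and 15 without glutamine, and also 1 of the 33 DON peaks (chr4:32247686-32265691, rank 3). Lef1 held 1 DON peak in its body (chr3:131134128-131141236, rank 30 of 33). No test between conditions was made, since each list came from both replicates together.

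H3K27me3 was listed near the start of Lef1 alone in vehicle cells (10.6% of all genes had such a peak), 600 bases upstream at chr3:131106711-131109871. The printed Lef1 promoter lies between it and the vehicle H3K27ac peak at chr3:131110330-131114245, and inside the H3K27ac peak found without glutamine (chr3:131110026-131120385). With CB-839 the mark was listed near Lef1 and near Klf2 (11% of all genes), at Klf2 from 640 bases inside the gene (chr8:72319673-72321115). Neither DON (3.74%) nor the medium without glutamine (7.2%) had an H3K27me3 peak near any of the 9 starts. No H3K27ac peak near a start passed a stricter IDR of 0.01, while the Lef1 and Klf2 peaks of H3K27me3 did. The share of all genes or of each list that passes it was not counted, so this does not set the 9 genes apart. Highly ranked H3K27ac peaks did not pass it either. Without glutamine those ranked 4 of 6687 (Satb1) and 7 (in the Bach2 body) had IDR values of 0.0437 and 0.0398.

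**Figure D4:**
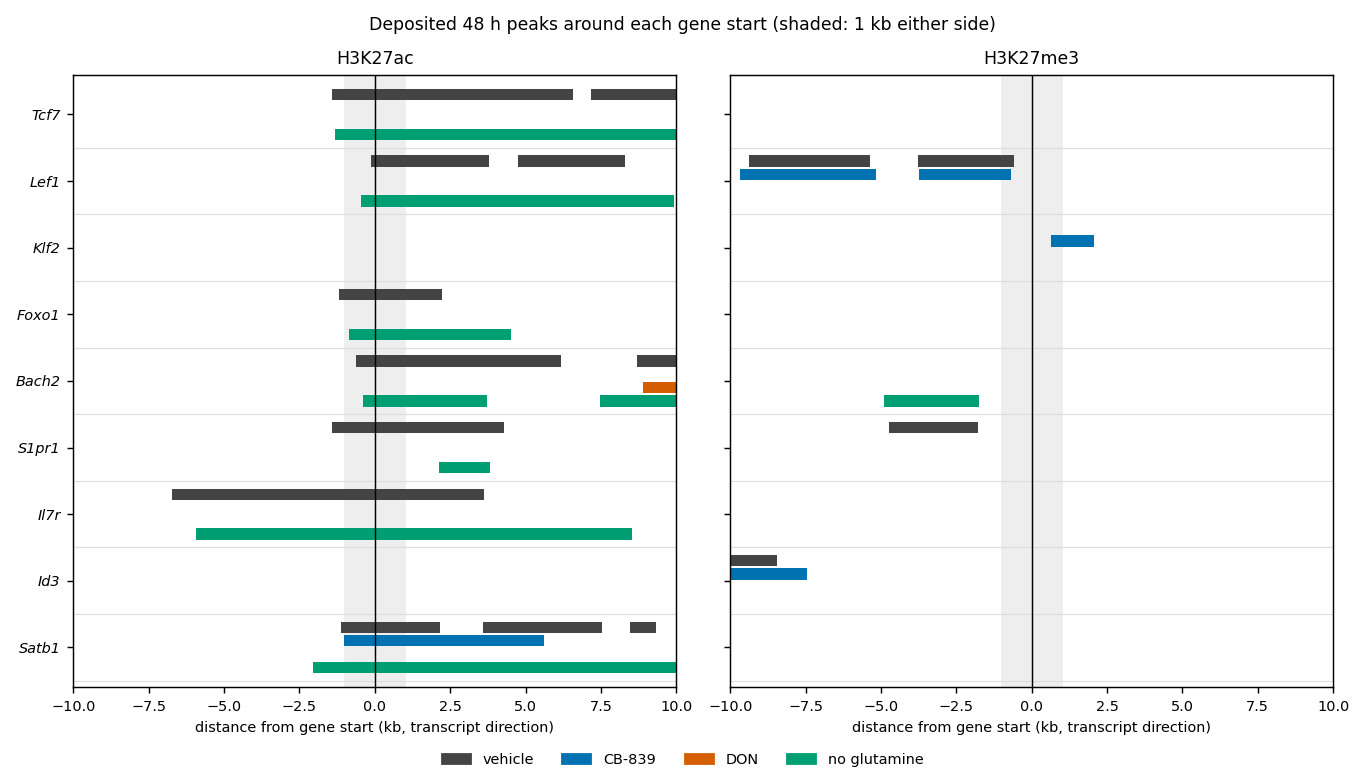
Listed 48 h peaks within 10 kb of each gene start (horizontal axis, kb in the direction of transcription); bars are peaks of each condition, left H3K27ac and right H3K27me3, and shading marks 1 kb on either side. No H3K27ac peak is listed near Klf2 or Id3, and the widest bars over a start are those without glutamine at Satb1, Il7r and Tcf7.

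All 9 genes lie on autosomes, and their positions in mm10 are as follows. Tcf7 lies at chr11:52252371-52283331, Lef1 at chr3:131110471-131224356, Klf2 at chr8:72319033-72321656, Foxo1 at chr3:52268336-52353221 and Bach2 at chr4:32238804-32586108. S1pr1 lies at chr3:115710433-115715072, Il7r at chr15:9505788-9530176, Id3 at chr4:136143497-136145755 and Satb1 at chr17:51736187-51833290. Tcf7, S1pr1, Il7r and Satb1 are on the minus strand. Exons of Lef1 shared 13.7% of their bases with another annotated gene, those of Foxo1 7.78%, those of Bach2 5.4% (with the antisense gene Bach2os) and those of Satb1 1.49%, and because reads were counted without strand those bases cannot be assigned to 1 gene.

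Across the 13 group means of log2 CPM, the 9 genes did not form a single pattern. Lef1 and Foxo1 were most alike (Pearson r = 0.95), followed by Klf2 and S1pr1 (0.93), Tcf7 and Foxo1 (0.9), Tcf7 and Lef1 (0.84), Tcf7 and Il7r (0.8), S1pr1 and Il7r (0.79) and Bach2 and Satb1 (0.74), while Bach2 and Il7r ran in opposite senses (-0.69). These correlations describe 13 points that share the contrast of unstimulated with activated cells, and no test was made of them. Among 8328 genes with a mean of at least 3 on the log2 CPM scale, those most like the mean pattern of the 9 were Stk17b (0.955), Pea15a (0.938), Ugcg (0.937), Hist1h1c (0.935) and Clk1 (0.932). The closest genes were Herc3 (0.992) and Slc43a2 (0.983) for Tcf7, Dnm2 (0.985) for Lef1, Rhob (0.948) and Trib2 (0.941) for Klf2, and Ncor1 (0.984) and Fam117a (0.98) for Foxo1. They were Mapk8 (0.951) and Myo9a (0.932) for Bach2, Rhoh (0.944) and Akap13 (0.941) for S1pr1, Abcg1 (0.957) and Ppp3ca (0.948) for Il7r, Akr1b3 (0.952) and Sart1 (0.923) for Id3, and Azi2 (0.972) and Coq10b (0.901) for Satb1. By rank correlation the leading gene stayed the same for Id3 and Satb1 and differed for the others.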

How the data were processed

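RNA-seq libraries were supplied as 1 table of raw counts per gene, which the authors made with featureCounts 2.0.1 on GENCODE M25 (mm10) without a strand option, per the file headers, although the labels call the libraries stranded. The submitters' processing notes also name the tools STAR, Bowtie2, MACS2, deepTools and FastQC, with no version. CUT&RUN peak lists were deposited as 1 list per mark and condition, filtered at an IDR of 0.05 per the values in the files; their signal and −log10 columns are the authors' own, as deposited, and only positions, ranks by signal and IDR were used. Counts were tested with edgeR 4.0.16 (limma 3.58.1, R 4.3.3): filterByExpr, TMM scaling and a robust quasi-likelihood fit of the 16 libraries at each time, with Benjamini-Hochberg adjustment over 18317 genes for activation and over 18274 (4 h), 16269 (24 h) and 16173 (48 h) for treatments, and a threshold of 0.05. All 9 genes passed the filter in each fit. SE is the log2 fold change divided by the square root of F. Fold values come from these fits, and CPM and percentages of the unstimulated level from scaling over all 52 libraries, so they differ slightly. The fits were tested on simulated counts. Same-letter libraries of a pair of groups were called paired where every correlation of their deviations was above 0.1: at 24 h DON and CB-839 (0.18 to 0.36), DON and vehicle (0.19 to 0.39) and CB-839 and vehicle (0.32 to 0.42), and at 4 h CB-839 and vehicle (0.17 to 0.52). What a letter stands for is not given in the labels. No 2 libraries of a group agreed within counting noise.

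The 9 genes and the lists were chosen with earlier results of these data known. Named genes are all 9, up to 4 per list with the smallest adjusted p in the comparison, and the genes most alike in pattern (up to 2 per gene, 5 for the mean; a CPM pseudocount of 0.5). The GC box motif was added after the sequence was seen. Genes were matched to symbols for 55141 of 55487 IDs. Alternatives were other scaling (DESeq2's size factors, library totals), no count filter, DESeq2 1.42.0, letter as a block, fits of 8 or 52 libraries, leaving out each library, and, for peaks, a window of 2500 bases, IDR 0.01, most of the peak inside the window, and the gene body. IgG libraries were not used, and values of a few named genes are not reported here.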

Additional observations from a re-analysis of the deposited data

Results flagged for a closer look

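In 4 of 117 sets of 4 libraries examined (9 genes in 13 groups), 1 library stood far from the other 3, where chance gives about 5.85. Tcf7 was at 274 CPM in DON D at 24 h, beside 330 to 339 CPM in the other DON libraries, and at 202 CPM in vehicle C at 48 h, beside 231 to 234 CPM. Klf2 was at 6.52 CPM in CB-839 A at 48 h, beside 4.81 to 4.87 CPM. Id3 was at 27.6 CPM in no-glutamine D at 48 h, beside 34.5 to 35.7 CPM.

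The effect of a treatment differed between successive times in 24 cases by the test of that difference (log2 scale, later minus earlier). With CB-839 it was Lef1 from 4 h to 24 h (-0.69). With DON from 4 h to 24 h the differences were 2.36 for Klf2, 1.45 for Il7r, 0.69 for Tcf7, -0.98 for Lef1 and -0.56 for Id3. With DON from 24 h to 48 h they were 1.84 for S1pr1, 1.56 for Klf2, 0.95 for Tcf7, 0.6 for Bach2 and -0.5 for Foxo1. Without glutamine from 4 h to 24 h they were -2.75 for Il7r, -2.44 for S1pr1, -1.18 for Klf2, -0.94 for Satb1, -0.84 for Id3, -0.82 for Lef1, -0.57 for Tcf7 and 0.34 for Bach2. Without glutamine from 24 h to 48 h they were 1.51 for S1pr1, 1.15 for Il7r, 0.93 for Tcf7, 0.61 for Satb1 and 0.59 for Lef1.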

How the results depend on the processing

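Of 3312 fold changes recomputed with 1 library left out, 3244 stayed on their side of the threshold, 46 lost the call, 22 gained one and 0 of the called values changed sign. Many of these fits left out a library outside the groups compared, which acts only through the filter, the scaling and the shared spread. A change of sign was counted only where the value was called in either fit, and some values not called did change sign. Under the other settings 1720 of 1818 stayed on their side of the threshold, 39 lost the call and 58 gained one. Among values called in either fit 1 changed sign: Satb1 in vehicle cells at 24 h against unstimulated cells was at -0.29 with library totals alone. The number of the 9 genes that passed moved by over 1.5 times in 5 comparisons, and the cause was not tested. With the replicate block in a fit of the 8 libraries compared it was 6 instead of 2 for CB-839 at 4 h, 1 (Satb1) instead of 0 for DON at 4 h and 6 instead of 2 for CB-839 at 24 h, where the replicate block in the fit of 16 libraries gave 5. The fit of the 8 libraries alone gave 0 for CB-839 at 24 h and 2 instead of 4 for no glutamine against DON at 4 h. The fit of all 52 libraries gave 0 for CB-839 at 24 h and 1 instead of 3 for CB-839 at 48 h. Leaving out each library gave 0 to 3 for CB-839 at 24 h and 2 to 4 for no glutamine against DON at 4 h. The block moved no other count by over 1.5 times. Over all genes, CB-839 called 2282 genes at 4 h (1518 with all 52 libraries and 4899 with the block in 8), 806 at 24 h (229 and 3554) and 2464 at 48 h (1166 and 331), and DON at 4 h called 0 (528 with the block in 8). Bach2 with DON at 48 h was lost with all 52 libraries (0.18, adjusted p = 0.0727) and with the block in 8 (0.3, adjusted p = 0.0536). Of the 9 gene starts, 0 had an H3K27ac peak in any list at an IDR of 0.01, and with most of the peak inside the window 2 had one in vehicle cells. The share of all genes under these rules was not counted. Low counts limit Klf2 and S1pr1 without glutamine at 24 h (315 and 262 reads over 4 libraries).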
